A study of Mus musculus with 49 samples.

Results

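The heat shock response chaperones described here are 10 genes: Hspa1a and Hspa1b (inducible HSP70), Hspa8 (constitutive HSP70), Hsph1 (HSP110), Hsp90aa1 (the inducible cytosolic HSP90), Dnajb1 and Dnajb5 (HSP40 co-chaperones), Hspb1 (a small heat shock protein), Bag3 (an HSP70 co-chaperone) and Hsf1 (the transcription factor that switches the response on). They are listed by gene symbol, a rule that uses no measured value, although the list was proposed with earlier results of these data known, and all 10 were found among the 45252 genes counted. All 10 also passed the filter on low counts, which 18220 genes passed.

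Bulk RNA was sequenced from the neocortex of 49 rNLS8-line mice, 1 library per mouse, bred from the strains C57BL/6J and C3H/HeJ. The 17 ctrl-PBS mice (10 female, 7 male) were monogenic: they carried the tetO-hTDP43∆NLS allele, which encodes human TDP-43 lacking the signal for nuclear import, but no driver. Bigenic mice carried in addition the NEFH-tTA allele, in which the neurofilament heavy chain promoter drives the transactivator, so that the transgene is switched on mainly in neurons when doxycycline is removed. Bigenic mice received PBS (TDP-PBS, 10 mice, 4 female and 6 male), peptides 10 and 12 of human TDP-43 together (TDP-10+12, 10 mice, 6 female and 4 male) or peptide 15 (TDP-15, 12 mice, 5 female and 7 male). All groups were injected from 8 weeks of age, 5 times before and 1 time after induction, with 40 µg of peptide or with PBS. Adjuvants (CpG oligonucleotide and Alhydrogel) were given with PBS as well as with the peptides, which were coupled to ovalbumin. Doxycycline was withdrawn from all mice at 25.5 weeks and tissue was taken 3 weeks later, at 28.5 weeks. The comparisons ask how these chaperone genes stood in cortex that expressed cytoplasmic TDP-43, and whether immunization went along with another level.

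Heat shock proteins are chaperones: HSP70 binds unfolded stretches of other proteins and releases them in an ATP-driven cycle, J proteins (HSP40) bring clients and start ATP hydrolysis, and HSP110 acts as the nucleotide exchange factor that closes the cycle. HSP90 receives partly folded clients from HSP70, and small heat shock proteins hold unfolded proteins without using ATP. When misfolded proteins take up the chaperones, HSF1 is freed, forms trimers and binds heat shock elements, inverted repeats of nGAAn in the promoters of these genes. Neurons are known for a high level of constitutive HSP70 and HSP90 and for a weak heat shock response compared with glia.

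Libraries held 17775738 to 21033608 counts, which puts 3 counts at 0.139 to 0.165 CPM (counts scaled to the size of each library with TMM factors), below each of the 10 genes. Mitochondrial transcripts made up 0.300 to 0.527% of counts in ctrl-PBS and 0.385 to 0.664% in bigenic mice. Markers of neurons were present in every group, with group medians of the summed excitatory markers from 5124 to 6827 CPM. Those of oligodendrocytes had medians from 3445 to 4092 CPM. Neighbouring tissue was also present, and markers of the choroid plexus summed to between 9.33 and 1671 CPM. Markers of the olfactory bulb and neighbouring tissue (Eomes, Omp, Scgn, Gh and Doc2g), called olfactory bulb markers below, summed to between 3.13 and 107 CPM. A pair of libraries stood apart in the chaperone genes, TDP-PBS mouse 91 and TDP-10+12 mouse 301, and several test results are given with and without them. Endogenous Tardbp was lower in bigenic mice by 0.27 on the log2 scale (SE 0.037, adjusted p = 1.18e-08, edgeR), with means of 146 CPM in ctrl-PBS and 121 CPM in bigenic mice. The transgene itself was not analysed here.

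In the 17 ctrl-PBS mice, levels per length of transcript spanned from the constitutive HSP70 to the small heat shock protein. Hspa8 came first at 562 ± 81.8 CPM per kilobase (SD, n = 17), followed by Hsp90aa1 at 185 ± 13.0, Dnajb5 at 59.0 ± 11.8, Hsph1 at 42.3 ± 6.18, Hsf1 at 25.8 ± 2.15 and Dnajb1 at 13.9 ± 1.87. Hspa1b at 9.03 ± 2.74, Hspa1a at 7.22 ± 1.70, Bag3 at 6.78 ± 0.649 and Hspb1 at 5.68 ± 1.90 were the 4 lowest. The ranges over mice of Hspa8 and Hsp90aa1 did not overlap, nor did those of Hsp90aa1 and Dnajb5, of Hsph1 and Hsf1, or of Hsf1 and Dnajb1. From Dnajb5 to Hsph1 and from Dnajb1 downward, neighbours in the order overlapped between mice.

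Against ctrl-PBS, the mean of the 3 bigenic groups was lower in 6 of the 10 genes and higher in 2 (edgeR's quasi-likelihood test on counts, Benjamini-Hochberg adjusted p under 0.05 over all 18220 genes). Of all genes tested, 54.2% passed this test, 27.1% higher and 27% lower, so that a call by itself does not set a chaperone gene apart. Hsph1, Hsp90aa1, Dnajb5, Hspa1b, Dnajb1 and Hspa8 fell, Hspb1 and Bag3 rose, and Hspa1a and Hsf1 did not pass. This mean pools PBS and peptide mice, and no immunized monogenic group was sequenced, so it mixes genotype with immunization. TDP-PBS differs from ctrl-PBS by genotype alone. In that comparison Hspa1b (adjusted p = 0.554), Hspa8 (adjusted p = 0.0988) and Bag3 (adjusted p = 0.0733) were not called by edgeR. The median log2 fold change over the 10 genes was -0.22, beside 0.00 over all genes tested. In bulk tissue, fewer cells of a type and less RNA per cell cannot be told apart.

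**Figure D1:**
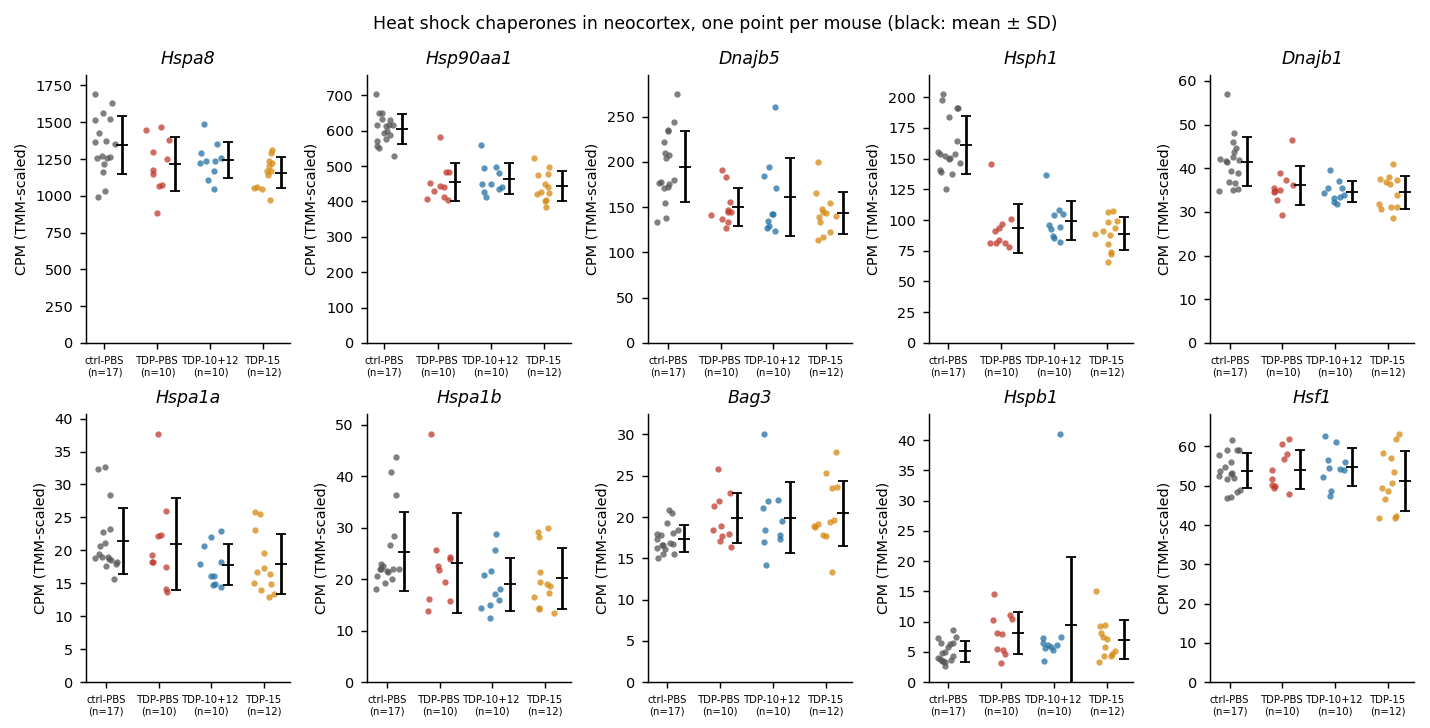
Level of each gene in CPM (vertical axis, from 0) in each mouse of the 4 groups (horizontal axis); black bars are the mean ± SD, and the lower end of the Hspb1 bar of TDP-10+12 is cut off at 0. In Hsph1 and Hsp90aa1, 30 of 32 bigenic mice lie below every ctrl-PBS mouse, and in Hspb1 a single TDP-10+12 mouse lies at 41.1 CPM.

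HSP110 showed the deepest fall of the 10 genes. Hsph1 (chr5:149614287-149636376, minus strand, GRCm38) ranged from 126 to 202 CPM in ctrl-PBS, with a median of 153. It ranged from 78.2 to 145 CPM in TDP-PBS (median 87.1), from 82.2 to 137 in TDP-10+12 (median 94.998) and from 65.5 to 108 in TDP-15 (median 89.9). The ranges of ctrl-PBS and TDP-15 did not overlap, and in TDP-PBS all but mouse 91, and in TDP-10+12 all but mouse 301, were lower than the lowest control. Of all genes tested, 5.53% had no overlap between TDP-15 and ctrl-PBS (3.08% with TDP-15 lower), beside 4.89% (2.58% lower) for TDP-PBS, 4.82% (2.59% lower) for TDP-10+12 and 2.8% for all bigenic mice together. Hsph1 was lower by 42.0% in TDP-PBS (log2 fold change -0.79, SE 0.090, adjusted p = 3.07e-10), by a log2 fold change of -0.70 in TDP-10+12 (SE 0.090, adjusted p = 7.44e-09) and by -0.86 in TDP-15 (SE 0.085, adjusted p = 3.21e-12). In the mean of the bigenic groups it was lower by 41.8% (log2 fold change -0.78, SE 0.065, adjusted p = 5.41e-15), and 1.59% of all genes tested had a lower log2 fold change.

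The inducible HSP90 gene followed. Hsp90aa1 (chr12:110690605-110702728, minus strand) lay between 528 and 702 CPM in ctrl-PBS (median 614), between 404 and 583 in TDP-PBS (median 443), between 412 and 560 in TDP-10+12 (median 450.03) and between 383 and 524 in TDP-15 (median 434). Every TDP-15 mouse was below every ctrl-PBS mouse, and the exceptions in the other groups were TDP-PBS mouse 91 and TDP-10+12 mouse 47. The log2 fold changes against ctrl-PBS were -0.41 in TDP-PBS (SE 0.052, adjusted p = 3.83e-09), -0.38 in TDP-10+12 (SE 0.052, adjusted p = 3.03e-08) and -0.45 in TDP-15 (SE 0.049, adjusted p = 7.33e-11). The bigenic mean was lower by 25.0% (log2 fold change -0.41, SE 0.038, adjusted p = 2.02e-13). Its constitutive paralog Hsp90ab1, singled out after its values were seen, had 1287 CPM in ctrl-PBS and 1278 CPM in bigenic mice, a log2 fold change of -0.01 (95% interval -0.06 to 0.05, adjusted p = 0.804). Of the 3182 stretches of 100 bases in the Hsp90aa1 transcript, 47.5% also occur in transcripts of other genes, mainly the pseudogenes Gm12346 (39.6%) and Gm5844 (20.4%), so reads can be split between them. These had log2 fold changes of -0.40 (SE 0.042) and -0.45 (SE 0.045), near that of Hsp90aa1. Hsph1 shares no such stretch with another gene.

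Both J protein genes fell in each bigenic group. Dnajb1 (chr8:83608193-83612653, plus strand), which encodes the main partner of inducible HSP70, ranged from 34.7 to 56.9 CPM in ctrl-PBS (median 41.7). Bigenic mice ranged from 29.3 to 46.5 CPM in TDP-PBS (median 35.2), from 31.8 to 39.6 in TDP-10+12 (median 34.1) and from 28.7 to 40.9 in TDP-15 (median 35.0). The groups overlapped, and 31 of 32 bigenic mice lay below the ctrl-PBS median, mouse 91 being the exception. The bigenic mean was lower by 15.5% (log2 fold change -0.24, SE 0.048, adjusted p = 2.17e-05), and the separate groups were at -0.20, -0.26 and -0.27. Dnajb5 (chr4:42949814-42959425, plus strand), a related J protein gene, ranged from 133 to 275 CPM in ctrl-PBS (median 180). The bigenic ranges were from 127 to 191 CPM in TDP-PBS (median 145), from 124 to 261 in TDP-10+12 (median 143) and from 114 to 200.0 in TDP-15 (median 142). It was below the ctrl-PBS median in 26 of 32 bigenic mice. Its bigenic mean was lower by 22.2% (log2 fold change -0.36, SE 0.078, adjusted p = 9.22e-05). In TDP-10+12 the call for Dnajb5 was close to the threshold (log2 fold change -0.27, adjusted p = 0.0324). It was lost when TDP-10+12 mouse 47, 51, 130, 200, 242 or 337, or ctrl-PBS mouse 71, 84, 99 or 232, was left out.

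Constitutive HSP70 fell less. Hspa8 (chr9:40800984-40810087, plus strand), the most abundant of the 10, spanned 995 to 1689 CPM in ctrl-PBS (median 1349). Bigenic mice ranged from 883 to 1467 CPM in TDP-PBS (median 1211), from 1046 to 1490 in TDP-10+12 (median 1239) and from 971 to 1312 in TDP-15 (median 1170). All groups overlapped widely. The bigenic mean was lower by 10.5% (log2 fold change -0.16, SE 0.054, adjusted p = 0.0101), and of the separate groups TDP-15 passed (-0.22, SE 0.068, adjusted p = 0.00646) while TDP-PBS (-0.15, adjusted p = 0.0988) and TDP-10+12 (-0.12, adjusted p = 0.201) did not. Of its 100-base stretches, 63.4% also occur in other genes, the pseudogene Gm15459 and the noncoding Gm26825 each holding 58.5%. Gm15459 was counted at 417 CPM in ctrl-PBS and 434 CPM in bigenic mice (log2 fold change 0.05, SE 0.11, adjusted p = 0.711). How reads were divided between these genes was not tested.

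No rise of the inducible HSP70 genes was called in bigenic mice. Hspa1a (chr17:34969190-34972156, minus strand) and Hspa1b (chr17:34956436-34959238, minus strand) are neighbouring genes of 1 exon each, and encode nearly the same protein. Their transcripts share 1350 stretches of 100 bases, 47.1% of those of Hspa1a and 49.9% of those of Hspa1b, so the split of counts between them is uncertain, and Hspa1a also overlaps a gene on the opposite strand, Gm20481. Hspa1a took between 41.0 and 54.4% of the pair's counts in all 49 mice. The stretches upstream of both genes are shown because they carry the same GAANNTTC match, the core of a heat shock element read as a pair of inverted nGAAn units, in capitals. The sequences, from RefSeq on GRCm38.p6 and read 5′ to 3′ on the gene's strand, are the 150 bases before each start, at chr17:34972157-34972306 and chr17:34959239-34959388 (both minus strand).
Hspa1a: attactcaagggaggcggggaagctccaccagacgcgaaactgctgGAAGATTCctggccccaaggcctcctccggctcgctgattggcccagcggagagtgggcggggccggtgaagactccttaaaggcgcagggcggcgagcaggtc
Hspa1b: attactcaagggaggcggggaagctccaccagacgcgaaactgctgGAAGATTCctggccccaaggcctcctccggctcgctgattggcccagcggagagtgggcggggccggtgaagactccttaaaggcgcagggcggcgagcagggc
Over the full 250 bases before the start, 247 positions are identical between the genes. The match begins at position -104 in both.

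Hspa1a ranged from 15.6 to 32.6 CPM in ctrl-PBS (median 19.03). The bigenic ranges were from 13.7 to 37.7 CPM in TDP-PBS (median 18.8), from 14.4 to 22.9 in TDP-10+12 (median 17.0) and from 12.9 to 25.9 in TDP-15 (median 16.6). Hspa1b ranged from 18.01 to 43.8 CPM in ctrl-PBS (median 22.05). Bigenic mice ranged from 13.9 to 48.2 CPM in TDP-PBS (median 22.1), from 12.5 to 28.7 in TDP-10+12 (median 17.6) and from 13.5 to 30.0 in TDP-15 (median 18.9). A few mice carried both genes high, ctrl-PBS mice 38, 71 and 232 with Hspa1b at 36.4, 40.8 and 43.8 CPM, and TDP-PBS mouse 91 with the highest value of all. The bigenic mean of Hspa1a was not called (log2 fold change -0.19, 95% interval -0.38 to 0.01, adjusted p = 0.106). It passed without mouse 91 (-0.22) and without mice 91 and 301 together (-0.21, adjusted p = 0.0457). Mouse 91 was picked for its high values, so leaving it out lowers this mean. That of Hspa1b was lower (log2 fold change -0.29, SE 0.12, adjusted p = 0.0389) but the call was lost in 16 of the 49 fits that left out 1 mouse, with the highest adjusted p, 0.115, without ctrl-PBS mouse 71 (log2 fold change -0.22). With the counts of both genes added, the log2 fold change was -0.24 (SE 0.11) and adjusted p = 0.0552. In TDP-PBS the 95% intervals of the log2 fold change reached from -0.45 to 0.20 for Hspa1b and from -0.30 to 0.23 for Hspa1a. In TDP-10+12 Hspa1b was called lower (-0.41, SE 0.16, adjusted p = 0.0385), and this call too was lost without single mice, among them ctrl-PBS mice 71 and 232, and without mice 91 and 301 together (-0.36, adjusted p = 0.0504).

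Hspb1 and Bag3, whose products act on aggregating proteins and on their removal by autophagy, were higher. The 150 bases before the start of Hspb1 (chr5:135887769-135887918, plus strand) are shown because they hold a pair of GAANNTTC matches, in capitals.
Hspb1: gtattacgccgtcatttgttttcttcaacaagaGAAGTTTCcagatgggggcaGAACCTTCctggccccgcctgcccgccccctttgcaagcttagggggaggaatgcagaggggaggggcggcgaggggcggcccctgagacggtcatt
The matches begin at positions -117 and -97. For comparison, Hsph1, which fell, has TTCTCGAA before both of its RefSeq starts (positions -54 and -33) and a run of 3 alternating units after them (positions 16 and 37). In GENCODE the gene begins farther upstream, at 149636376 on the minus strand, so both matches lie after that start. Each is shown within 30 bases at chr5:149636351-149636380 and chr5:149636280-149636309 (minus strand).
Hsph1, first match: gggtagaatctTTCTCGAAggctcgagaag
Hsph1, second match: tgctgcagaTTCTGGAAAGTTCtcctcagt
Of all 32851 RefSeq windows of 300 bases around a start, 7.86% hold GAANNTTC, 8.52% hold TTCNNGAA and 0.603% hold 3 such units in alternation, in either orientation. Both short motifs read the same on both strands, and the longer one contains both of them. Bag3 has GAAGTTTC after its start, the 2 windows of Dnajb1 and the 3 of Dnajb5 hold no match to these letters, and Hspa8, Hsp90aa1 and Hsf1 had no window in the table used. Genes that fell and genes that rose both held matches.

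Hspb1 (chr5:135887919-135889563, plus strand) ranged from 2.70 to 8.57 CPM in ctrl-PBS (53 to 159 counts, median 4.84 CPM). Bigenic mice ranged from 3.24 to 14.5 CPM in TDP-PBS (median 8.09), from 3.57 to 41.1 in TDP-10+12 (median 6.14) and from 3.31 to 15.1 in TDP-15 (median 6.44). The groups overlapped, 8 of 32 bigenic mice lay above every ctrl-PBS mouse, and 25 of 32 above their median. The bigenic mean was 59.0% higher (log2 fold change 0.67, SE 0.22, adjusted p = 0.00760). TDP-PBS was called near the threshold (0.66, SE 0.28, adjusted p = 0.0456), TDP-15 was not (0.45, SE 0.26, adjusted p = 0.159; 0.46 and adjusted p = 0.0352 without mice 91 and 301 together), and the call in TDP-10+12 (0.89, SE 0.27, adjusted p = 0.00690) rested on mouse 301: without it the log2 fold change was 0.24 and adjusted p = 0.395. The bigenic mean of Hspb1 without mouse 301 was 0.46, and it was called in each of the 49 fits that left out 1 mouse (highest adjusted p = 0.0140). In TDP-PBS the call was lost without mouse 91 (log2 fold change 0.54, adjusted p = 0.116) and in 15 other fits that left out 1 mouse, but held without mice 91 and 301 together (0.54, adjusted p = 0.0232). Of the 100-base stretches of Hspb1, 56.3% also occur in the pseudogene Hsp25-ps1, which had a log2 fold change of 0.54 (SE 0.22, adjusted p = 0.0376).

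Bag3 (chr7:128523616-128546981, plus strand) held narrower ranges, 15.1 to 20.8 CPM in ctrl-PBS (median 16.9). The bigenic ranges were from 16.4 to 25.8 CPM in TDP-PBS (median 18.7), from 14.2 to 30.1 in TDP-10+12 (median 18.97) and from 13.4 to 27.8 in TDP-15 (median 19.3). It was above the ctrl-PBS median in 29 of 32 bigenic mice. The bigenic mean was 15.5% higher (log2 fold change 0.21, SE 0.068, adjusted p = 0.00790). TDP-15 passed (0.23, SE 0.084, adjusted p = 0.0185), and TDP-PBS (0.19, adjusted p = 0.0733) and TDP-10+12 (0.20, adjusted p = 0.0681) did not. The call in TDP-15 was lost without mouse 126 (0.19). A gene on the same strand, 2610306O10Rik, overlaps Bag3.

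The transcript of the regulator itself did not differ detectably. Hsf1 (chr15:76477422-76501913, plus strand) lay between 46.9 and 61.7 CPM in ctrl-PBS (median 53.3). Bigenic mice ranged from 47.9 to 61.9 CPM in TDP-PBS (median 52.9), from 47.4 to 62.7 in TDP-10+12 (median 54.4) and from 41.7 to 63.2 in TDP-15 (median 50.05). The bigenic mean had a log2 fold change of -0.01 (95% interval -0.10 to 0.08, adjusted p = 0.814). HSF1 is controlled largely by binding, trimerization and phosphorylation of the protein, which RNA counts do not measure.

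By group against the same ctrl-PBS mice, 5 of 10 genes were called in TDP-PBS (1 higher, 4 lower), beside 43.5% of all genes tested (21.9% higher, 21.6% lower). In TDP-10+12, 6 were called (1 higher, 5 lower), beside 40.8% (20.8% higher, 20% lower). In TDP-15, 6 were called (1 higher, 5 lower), beside 46.9% (23.6% higher, 23.2% lower). Dnajb1, Dnajb5, Hsp90aa1 and Hsph1 were lower in each of the 3. These comparisons share their controls.

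**Figure D2:**
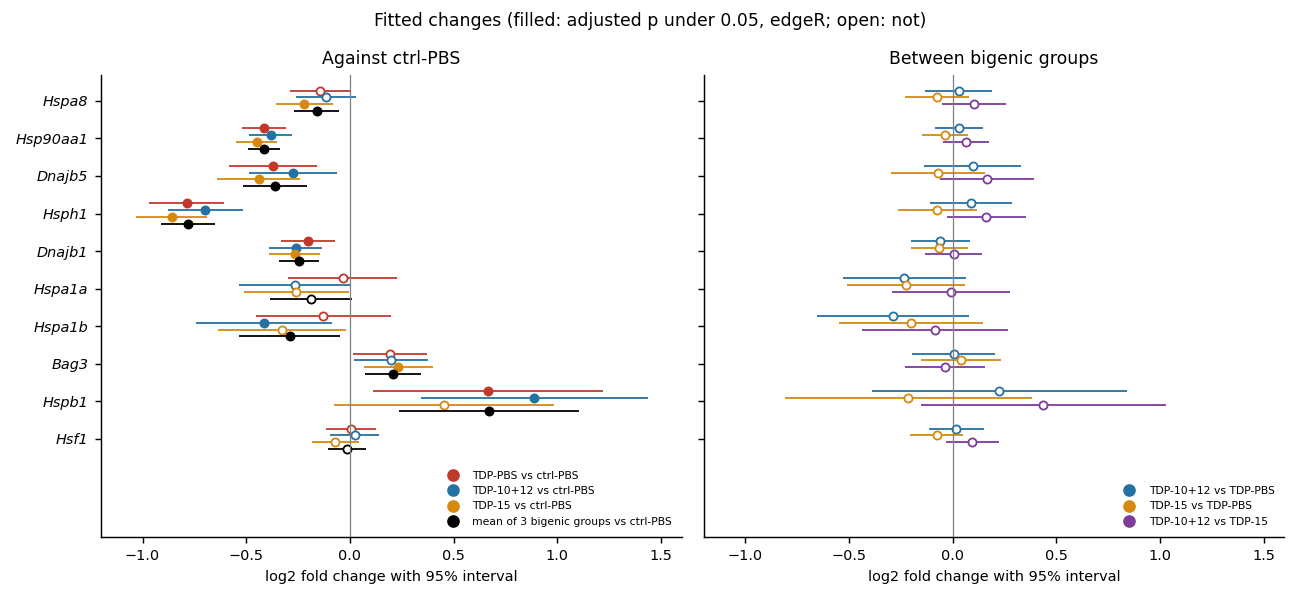
Fitted log2 fold change (horizontal axis) with its 95% interval for each gene (vertical axis), on the left against ctrl-PBS and on the right between bigenic groups; filled points have an adjusted p under 0.05. Hsph1 lies farthest to the left, between -0.86 and -0.70, and all points on the right are open.

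Some neuronal and glial markers also differed between bigenic and ctrl-PBS mice. Of all genes tested, 54.2% were called in the bigenic mean (27.1% higher, 27% lower). Calls in a short list therefore do not by themselves set it apart. In the bigenic mean 3 of 5 markers of excitatory neurons were lower and none higher, with log2 fold changes from -0.57 (Camk2a) to 0.17. Neurod6 had -0.56 and Slc17a7 had -0.05 (adjusted p = 0.388). By group, 2 of the 5 were lower and 1 higher in TDP-PBS and in TDP-15, and 3 were lower in TDP-10+12. The highest log2 fold changes were 0.25 in TDP-PBS and 0.27 in TDP-15. The summed level of these 5 markers ranged from 5360 to 8097 CPM in ctrl-PBS, 4033 to 6015 in TDP-PBS, 3915 to 6052 in TDP-10+12 and 4333 to 5832 in TDP-15. Of 5 inhibitory markers 4 were lower, with summed ranges of 844 to 1112, 704 to 1067, 703 to 1128 and 667 to 896 CPM in the same order. Of 5 astrocyte markers, Gfap was higher (1.62) and Slc1a3 and Gja1 were lower, with sums of 588 to 803 CPM in ctrl-PBS and 683 to 1642 CPM in bigenic mice. Of 6 microglial markers 4 were higher and 1 lower, with sums of 155 to 184 CPM in ctrl-PBS and 163 to 288 CPM in bigenic mice. No oligodendrocyte marker of 5 was called, 1 of 5 endothelial markers was lower, 1 of 5 pericyte and smooth muscle markers was higher and 1 lower, and no marker in these lists was at 0 in all mice of a group. The part of these markers in the chaperone results was not tested.

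Choroid plexus and olfactory bulb markers, which belong to neighbouring tissue, were also unequal. In the bigenic mean 3 of 3 were higher and 4 of 5 lower, beside 27.1% and 27% of all genes tested. When the 15 libraries with over 200 CPM of the former or over 20 CPM of the latter were left out, 7 of the 10 chaperone genes were called in the bigenic mean, where 46.2% of all genes tested were called, and Bag3 was just outside (log2 fold change 0.21, adjusted p = 0.0502). Without mice 91 and 301, 9 of 10 were called, beside 54.1% of all genes tested. These mice were picked for high values in the chaperone genes, so leaving them out lowers the bigenic means of those genes. High ctrl-PBS mice were kept, and no conclusion is drawn from the added call.

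Immunization went along with no detectable difference in any of the 10 genes. Between TDP-10+12 and TDP-PBS, TDP-15 and TDP-PBS, and TDP-10+12 and TDP-15, 0 of the 10 genes were called by edgeR, and 0 of 10 had an unadjusted p under 0.05. Over all genes, 0% were called in each comparison (7 genes between TDP-10+12 and TDP-PBS without mice 91 and 301, none of the 10 among them), and 953 (5.23%), 552 (3.03%) and 1244 (6.83%) of 18220 had an unadjusted p under 0.05. The precision differed by gene. For Hsph1 the log2 difference from TDP-PBS was 0.09 in TDP-10+12 (95% interval -0.11 to 0.29) and -0.07 in TDP-15 (-0.26 to 0.12). For Hsp90aa1 it was 0.03 (-0.08 to 0.15) and -0.03 (-0.15 to 0.08). For Hspb1 it was 0.22 (-0.39 to 0.84) and -0.21 (-0.81 to 0.38). Both intervals hold differences as large as the one between bigenic and ctrl-PBS mice (0.67), upward in TDP-10+12 and downward in TDP-15.

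Sex went along with no detectable difference in the 10 genes. Of them, 0 were called between male and female mice by edgeR with group in the model, where 17 of 18220 genes (0.0933%) were called and 724 (3.97%) had an unadjusted p under 0.05. The nearest was Hspb1, with a log2 difference of 0.39 in males over females (95% interval -0.01 to 0.79, p = 0.0547 unadjusted, adjusted p = 0.999). In the 27 PBS mice, 0 of 17363 genes, and none of the 10, had an interaction of genotype and sex at an adjusted p under 0.05, and 1097 genes (6.32%) had an unadjusted p under 0.05. Hspa8 had the smallest of the 10 (interaction of 0.32 on the log2 scale, 95% interval -0.0037 to 0.65, unadjusted p = 0.0525).

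Within groups, the chaperone genes rose and fell together from mouse to mouse. Pearson's r was computed on log2 CPM centred on each group's mean over all 49 mice, for 45 pairs, with p from 100000 permutations within groups adjusted by the Benjamini-Hochberg method. In 33 of the 45 pairs the adjusted p was under 0.05, each with r above 0, and the median r was 0.44. Over all pairs of the 18220 genes the median r was -0.002, and 6.32% reached 0.30, the lowest r called here. Both values of a pair came from 1 library, so they share its depth, RNA quality and tissue makeup.

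**Figure D3:**
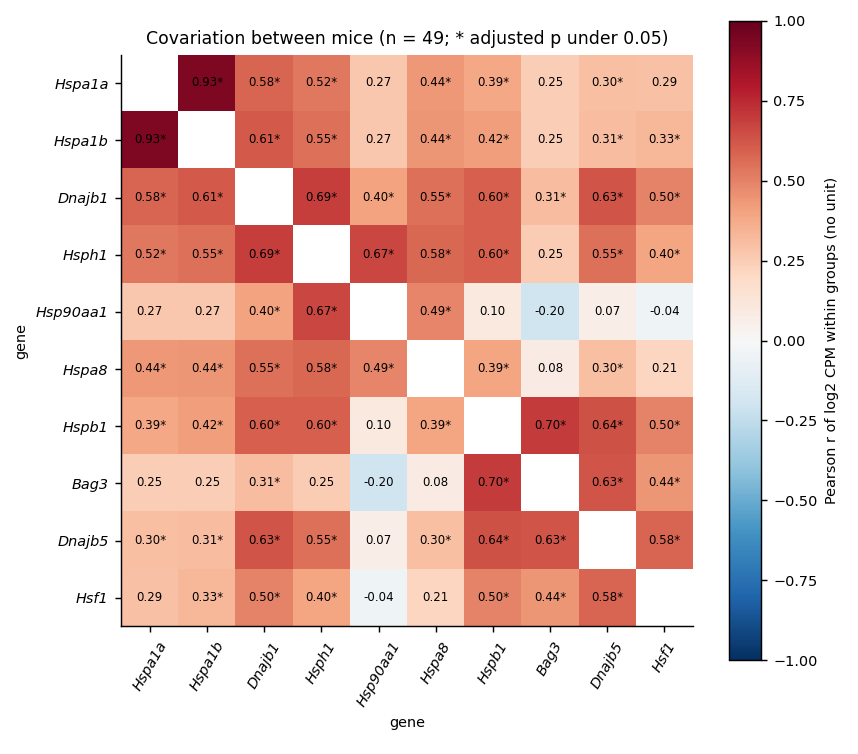
Pearson's r of log2 CPM between each pair of the 10 genes (both axes list the genes) within groups over 49 mice; the colour bar runs from -1 to 1 and asterisks mark an adjusted p under 0.05. Hspa1a and Hspa1b reach 0.93, and Hsp90aa1 is near or below 0 with Bag3, Dnajb5, Hspb1 and Hsf1.

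The strongest pair was Hspa1a with Hspa1b (r = 0.93, permutation p = 1e-05, the smallest these permutations give, adjusted 5.62e-05; Spearman's rho = 0.89, permutation p = 1e-05, adjusted 0.00018; r = 0.92 without the 2 mice farthest from the median of Hspa1a), and these genes share stretches of sequence. Next came Hspb1 with Bag3 (r = 0.70, permutation p = 2e-05, adjusted 7.5e-05, rho = 0.55, permutation p = 0.00015, adjusted 0.000562, and r = 0.56 without the 2 farthest mice). Hsph1 went with Dnajb1 (r = 0.69, rho = 0.61, and r = 0.62 without the 2 farthest mice) and with Hsp90aa1 (r = 0.67, rho = 0.61, and r = 0.59 without them). Both pairs had a permutation p of 1e-05 for r (adjusted 5.62e-05) and of 2e-05 for rho (adjusted 0.00018). Hsp90aa1 showed no such relation to Bag3 (r = -0.20, permutation p = 0.203, adjusted 0.222, rho = -0.20, permutation p = 0.202, adjusted 0.233), to Hspb1 (r = 0.10, permutation p = 0.515, adjusted 0.551) or to Dnajb5 (r = 0.07, permutation p = 0.648, adjusted 0.663). Without mice 91 and 301, 28 pairs were called, 27 with r above 0, and the pair of Hsp90aa1 and Bag3 had r = -0.35 (adjusted permutation p = 0.0438, and rho = -0.29, adjusted permutation p = 0.0824). Within the 17 ctrl-PBS mice alone 29 pairs were called, and within the 32 bigenic mice alone 18.

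**Figure D4:**
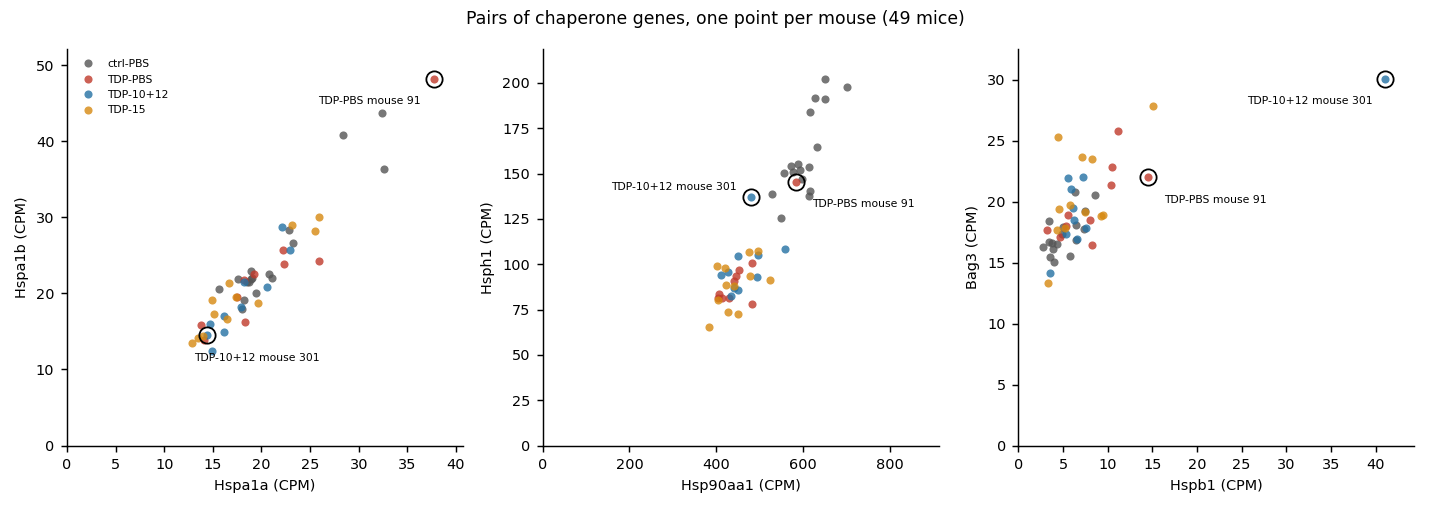
Level in CPM of 3 pairs of genes in each of 49 mice, coloured by group, with TDP-PBS mouse 91 and TDP-10+12 mouse 301 circled. In the middle panel the other bigenic mice lie below 110 CPM of Hsph1 and both circled mice above it; in the right panel mouse 301 stands alone in Hspb1.

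Both mouse 91 and mouse 301 stood apart in Hsph1, and otherwise in different genes. In TDP-PBS mouse 91, Hspa1a (37.7 CPM, next mouse 25.9), Hspa1b (48.2, next 25.7), Hsp90aa1 (583, next 484) and Hsph1 (145, next 100.5) were higher than in the other 9 mice of the group. In TDP-10+12 mouse 301, Hspb1 (41.1 CPM, next 7.54), Bag3 (30.1), Dnajb5 (261, next 194) and Hsph1 (137, next 109) were high, and Hspa1a (14.4) was the lowest of its group. Mouse 301 also had the highest Gfap of its group (1133 CPM, against 181 to 384 in the other 9), Vim at 159 CPM and Stat3 at 110 CPM, and the lowest sum of excitatory neuron markers (3915 CPM), and their part in its chaperone levels was not tested. By the same measure of distance from the next mouse (Dixon's ratio), mouse 301 stood highest and apart in 4.35% of all genes tested and mouse 91 in 1.41%.

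The genes whose levels between mice were most like those of each chaperone gene, by r over the same 49 centred values, are given without any inference on control. Hsph1 was closest to Chordc1 (r = 0.83), P4ha1 (0.81) and Hsp90b1 (0.80). Hspb1 was closest to its pseudogene Hsp25-ps1 (0.90), then to Stat3 (0.79) and Vim (0.77), genes of the reactive astrocyte state. TDP-10+12 mouse 301 was the highest of its group in Hspb1, Stat3 (110 CPM) and Vim (159 CPM), and r without it was not computed. Hsp90aa1 was closest to its pseudogene Gm12346 (0.87), then Kif3a (0.70) and Hsp90b1 (0.69). Dnajb5 was closest to Midn (0.90), Gpr3 (0.85) and Stk40 (0.85), Dnajb1 to Banp (0.80), Xbp1 (0.78) and Hspa5 (0.76), and Bag3 to Ticam1 (0.78), Msn (0.76) and Zfp703 (0.74). Hspa1a and Hspa1b were closest to each other and then to Hexim1 (0.72 and 0.74) and Dlx1as (0.70 and 0.74). Hspa8 was closest to St3gal4 (0.72), Clmp (0.71) and Gm39332 (0.70), and Hsf1 to Sipa1l3 (0.73), Zfhx2 (0.68) and Nfya (0.68).

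In the wider chaperone network, 82 further genes in lists that share some genes, calls went in both directions. Dnaja1, for instance, is counted both among the genes induced through HSF1 and among the J proteins. Of all genes tested, 54.2% were called in the bigenic mean, 27.1% higher and 27% lower. The counts of calls per list therefore do not by themselves set a list apart. Of 20 other genes known to be induced through HSF1, 7 were lower and 5 higher in the bigenic mean, with a median log2 fold change of -0.01. Dnaja1, a farnesylated HSP40, fell most (-0.54, SE 0.043, from 104 to 71.4 CPM, adjusted p = 1.62e-15), below every ctrl-PBS mouse in 31 of 32 bigenic mice. Hspa4l, an HSP110 relative, fell by 0.49 on the log2 scale (SE 0.042, adjusted p = 2.54e-14), also in 31 of 32. Cryab, the small heat shock protein of oligodendrocytes and astrocytes, was lower (-0.31, SE 0.063) and Hspb8, the partner of BAG3, was higher (0.31, SE 0.092).

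In the other HSP70 and HSP110 genes, 6 of 11 were lower and 2 higher (median -0.16). Hspa2 was lower (-0.38, SE 0.076), as was Hspa12b (-0.22, SE 0.064), and Hspa9, the mitochondrial HSP70, was higher (0.23, SE 0.027). Of 15 genes of HSP90 and its co-chaperones, 6 were higher and 5 lower (median 0.05). Fkbp5, an immunophilin induced by glucocorticoids, was higher (0.43, SE 0.090), and Stub1, the ubiquitin ligase CHIP, Ptges3 (p23) and St13 (HIP) were lower (-0.31, SE 0.031, then -0.26, SE 0.044, and -0.18, SE 0.038). Of 21 other J protein genes, 19 were tested, 8 were lower and 3 higher (median -0.06). Dnajb6, a suppressor of aggregation, was below every ctrl-PBS mouse in 32 of 32 bigenic mice (-0.33, SE 0.027, from 76.2 to 60.5 CPM, adjusted p = 3.94e-15), as 1.64% of all genes were. Dnajb14 (-0.33, SE 0.045) and Dnaja2 (-0.28, SE 0.032) were lower as well.

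Among the other small heat shock protein genes, 7 of 9 were tested, 3 were higher and 1 lower (median 0.31). Hspb6 rose from 12.6 to 21.3 CPM (0.75, SE 0.12, adjusted p = 5.38e-07), above every ctrl-PBS mouse in 27 of 32 bigenic mice. Hspb7 rose from 0.464 to 1.07 CPM (1.18, SE 0.22, adjusted p = 1.41e-05), a low level. Of the 5 other BAG genes Bag6 was higher (0.21, SE 0.050) and Bag1 and Bag5 lower (-0.17, SE 0.031, and -0.15, SE 0.047). Of 10 chaperonin genes 4 were lower and 1 higher, with Cct2 at 0.23 (SE 0.025), Tcp1 at -0.18 (SE 0.030), Cct6a at -0.16 (SE 0.031) and the mitochondrial Hspd1 at -0.12 (SE 0.043). Of 5 genes listed with the HSF family, 4 were tested and 2 were lower. These were the factor gene Hsf4 (-0.50, SE 0.054, adjusted p = 2.75e-11, from 25.3 to 17.9 CPM) and Hsbp1 (-0.17, SE 0.028). Hsbp1 encodes an inhibitor of HSF1 and is not itself a heat shock factor gene.

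**Figure D5:**
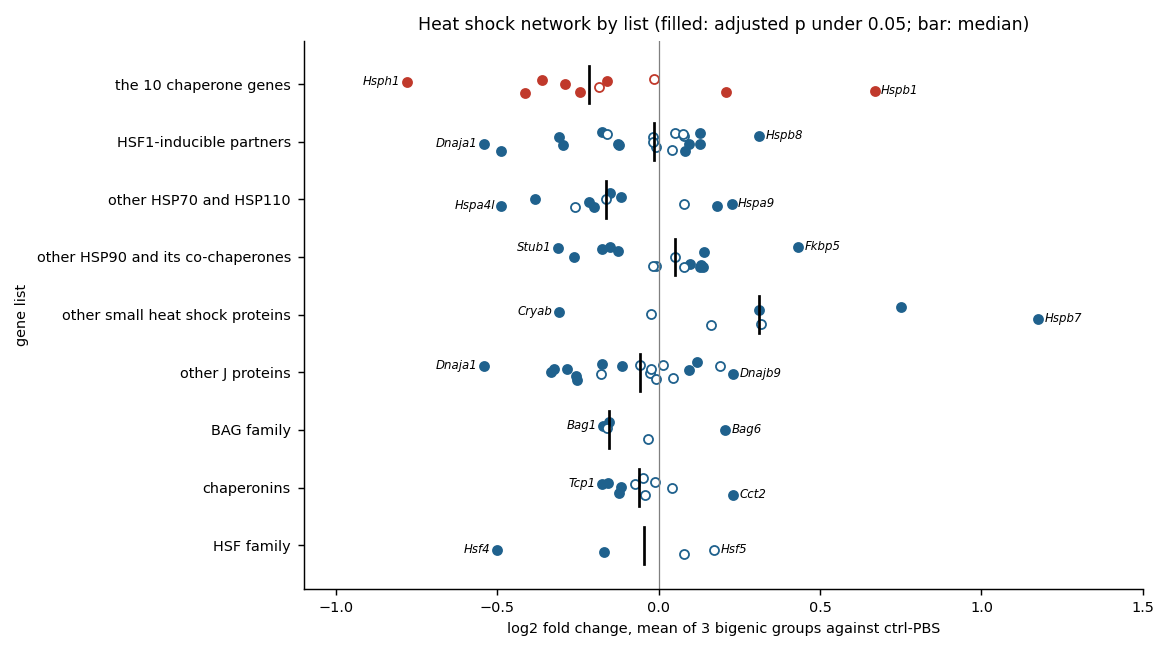
Log2 fold change of each gene (horizontal axis) in the mean of the 3 bigenic groups against ctrl-PBS, by gene list (vertical axis); filled points have an adjusted p under 0.05, the bars are medians, and the lowest and highest gene of each list are named. The 10 chaperone genes have a median of -0.22 and the other small heat shock proteins one of 0.31.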

How the data were processed

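The authors deposited whole-number counts per gene for each mouse, aligned to mm10 (GRCm38). The submitters' processing notes name HISAT, HISAT2, Bowtie, Bowtie2 and RSEM. The step that used each, the annotation and the strand setting are not given in the sources used here. Each library came from about 30 mg of neocortex and 200 ng of RNA, with paired reads of 100 bases. Groups were taken from the labels, and the animal number names the mouse. Counts were tested with edgeR 4.0.16 (R 4.3.3). Genes were kept by filterByExpr (minimum count 10), scaled by TMM, and fitted with 1 mean per group over all 49 mice by the quasi-likelihood method. Adjusted p-values are Benjamini-Hochberg over all genes tested. The 10 genes, the gene lists and the marker lists were chosen with earlier results of these data known. Named genes were the 10 genes, up to 4 called genes per list with the largest change, 3 genes per gene by r over mice, Tardbp and markers. The labels give no batch. No 2 mice of a group agreed within sampling noise. Coordinates are from GENCODE M21 and promoters from RefSeq, both GRCm38, and 7 of the 10 genes matched the promoter table. The fit was tested on simulated data. Alternatives were other normalizations, filters, a sex term, DESeq2 1.42.0, limma 3.58.1 with voom quality weights, the groups compared alone, and leaving out 1 mouse in turn. Adding Hspa1a to Hspa1b and leaving out mice 91 and 301 or libraries rich in choroid plexus or olfactory bulb RNA were chosen after seeing the data.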

Additional observations from a re-analysis of the deposited data

Results flagged for a closer look

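Within the groups of 10 mice (TDP-PBS and TDP-10+12), the highest and lowest mouse was compared with the nearest other mouse for each of the 10 genes, in 20 sets of values. In 8 sets the highest mouse stood apart by more than Dixon's 95% limit of 0.466 of the range. For normally distributed values chance gives about 1 set in 20, but CPM were used untransformed and the genes are not independent. Over all 18220 genes tested, mouse 301 stood highest and apart in 4.35% and mouse 91 in 1.41%, beside 4 of the 10 genes each. TDP-PBS mouse 26 did so in 2.11% of all genes and in 0 of the 10. All 8 came from a pair of mice. TDP-PBS mouse 91 gave Hspa1a at 37.7 CPM, Hspa1b at 48.2 CPM, Hsp90aa1 at 583 CPM and Hsph1 at 145 CPM. TDP-10+12 mouse 301 gave Hspb1 at 41.1 CPM, Dnajb5 at 261 CPM, Hsph1 at 137 CPM and Bag3 at 30.1 CPM. Groups of more than 10 mice were not examined in this way.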

How the results depend on the processing

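The number of the 10 genes called stayed within 1.5 times its value under every alternative run: 4 to 6 in TDP-PBS, 4 to 7 in TDP-10+12, 5 to 8 in TDP-15, 7 to 9 in the bigenic mean and 0 between bigenic groups and between sexes. Hsph1 and Hsp90aa1 were called in each of them. Of 422 refits of single genes against ctrl-PBS under other settings, 393 kept their direction and side of the threshold, 14 lost the call, 11 gained one and 4 turned sign, and of 1960 refits without 1 mouse these numbers were 1864, 55, 21 and 20. The values that turned sign follow, and the cause was not tested. For Hsf1, TDP-PBS vs ctrl-PBS turned to -0.000126 with sex as a term, -0.00231 with voom and -0.0048 without mice 91 and 301, and TDP-10+12 vs ctrl-PBS to -0.038 without libraries rich in choroid plexus or olfactory bulb RNA. With voom, TDP-10+12 against TDP-PBS gave -0.15 for Hspb1 and -0.048 for Bag3, TDP-15 against TDP-PBS 0.0063 for Hsp90aa1 and 0.0050 for Hsph1, TDP-10+12 against TDP-15 0.050 for Hspa1a, -0.023 for Hspb1 and -0.021 for Dnajb1, and males against females -0.033 for Dnajb5, -0.0051 for Hsp90aa1 and -0.037 for Hsph1. With sex as a term, Hspa1a in TDP-10+12 against TDP-15 was 0.013. Without mice 91 and 301, a choice made after seeing the data, TDP-10+12 against TDP-PBS gave -0.31 for Hspb1 and -0.062 for Bag3, TDP-15 against TDP-PBS 0.0095 for Hsp90aa1 and 0.018 for Hsph1, and TDP-10+12 against TDP-15 0.022 for Hspa1a, -0.22 for Hspb1 and -0.017 for Dnajb1. Without libraries rich in choroid plexus or olfactory bulb RNA, also chosen after seeing the data, TDP-10+12 against TDP-PBS gave -0.032 for Bag3 and -0.048 for Hsf1, and TDP-15 against TDP-PBS 0.0044 for Hsp90aa1. With 1 mouse left out in turn, Hsf1 ranged from -0.0057 to 0.036 in TDP-PBS and from -0.025 to 0.010 in the bigenic mean, and Hspa1a from -0.16 to 0.031 in TDP-PBS. For TDP-10+12 against TDP-PBS the ranges were -0.44 to 0.36 for Hspb1, -0.0065 to 0.14 for Dnajb5, -0.00025 to 0.077 for Hsp90aa1, -0.079 to 0.054 for Bag3, -0.014 to 0.062 for Hspa8 and -0.0060 to 0.040 for Hsf1. For TDP-15 against TDP-PBS they were -0.058 to 0.0095 for Hsp90aa1, -0.10 to 0.018 for Hsph1 and -0.0069 to 0.090 for Bag3. For TDP-10+12 against TDP-15 they were -0.056 to 0.050 for Hspa1a, -0.22 to 0.60 for Hspb1, -0.017 to 0.029 for Dnajb1 and -0.12 to 0.012 for Bag3. Over all genes, TDP-10+12 against TDP-PBS called 1 gene with no filter, 2 with voom, 0 to 3 without 1 mouse (3 without mouse 91) and 7 without mice 91 and 301, and TDP-10+12 against TDP-15 called 1 with no filter and 2 with the groups compared alone. Between sexes 53 genes were called with no filter, 11 when each mouse had to reach 10 counts and 28 with DESeq2, beside 17. Of the 45 pairs, 18 were called within the 32 bigenic mice alone. No paired analysis was possible because every mouse is a separate animal with its own number. Hspb1 had 53 to 159 counts per ctrl-PBS library and a coefficient of variation of 33.5% there.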
